A study of Homo sapiens with 4 samples.

Results

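The genes described here are 31 transcriptional targets of the tumour suppressor p53, listed by name and grouped by the role they were listed under. They were followed in MDA-MB-231 cells, an established human breast cancer line of triple-negative, mesenchymal-like type. Of the 31, 29 had a probe set annotated to that gene alone, out of 18417 genes measured in this way, and each of the 29 had 1 such probe set, so that no choice between probe sets was needed. BTG2 and FDXR were not analysed here.

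The series holds 4 Affymetrix whole-transcript arrays in 2 groups. The vector group is MDA-MB-231 cells transfected with the empty plasmid (2 arrays), and the FOXC1 group is the same line given a plasmid that encodes FOXC1, a forkhead transcription factor (2 arrays). Both groups went through lipid-based transfection and were grown in the same serum-containing medium with antibiotics. The labels call the arrays biological replicates and name no selection, clone or time after transfection. Values are PLIER signal, a linear intensity. Changes are differences of log2(signal + 16), FOXC1 minus vector, and folds are 2 to that power. A gene is called higher or lower when its adjusted p in limma is under 0.05. The number of arrays limits the precision.

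In cells with wild-type p53, DNA damage and other stresses stabilise the protein, which then binds paired copies of a 10-base consensus near its targets and raises their transcription. The products halt the cell cycle (CDKN1A), trigger cell death (BAX, BBC3), repair DNA (DDB2, XPC) or return p53 to its low resting level (MDM2). Many of these genes are also driven by other factors and by stress pathways that do not need p53.

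The median signal over all probe sets lay between 489 and 492 with vector and between 499 and 512 with FOXC1. The array signals for the line's markers matched its label in part: 6 of the 7 mesenchymal-like markers (VIM, CD44, AXL, MSN, CAV1 and EGFR) were bright, and SPARC was dim at 137 to 184. Of 8 luminal or receptor-positive markers, the hormone receptor genes ESR1 (245 to 273) and PGR (89.8 to 107) and the cadherin gene CDH1 (270.4 to 287) were dim, but KRT8 (7545 to 9449), KRT18 (7538 to 8855), ERBB2 (1134 to 1303), GATA3 (794 to 931) and EPCAM (660.0 to 1041) were not. The summed signal of these 8 lay between 21509 and 22093 with vector and between 18327 and 18559 with FOXC1, with 4 called lower (KRT8, KRT18, EPCAM and GATA3). The summed signal of 5 measured leukocyte markers ranged from 1318 to 1424 in the vector arrays and from 1387 to 1497 in the FOXC1 arrays, with 1 called higher (PTPRC, at 93.9 or less in each array). That of 5 endothelial markers lay between 3341 and 3369 with vector and between 2430 and 2486 with FOXC1, with 3 called lower, and that of 5 fibroblast markers ranged from 1619 to 1650 and from 1653 to 1732, with 1 called higher. Their part in the results below was not tested. In these bulk samples, fewer cells with a transcript and less of it per cell cannot be told apart. The transfected gene was not analysed here.

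Promoter windows from RefSeq (GRCh38.p14, 250 bases before to 50 bases after each transcript start) were held for 25 of the 29 genes. They are shown first because p53 acts through its consensus and FOXC1 through forkhead sites. A 10-base p53 consensus unit stood in the window of 4 of the 25 genes (16%), against 8.19% of 14239 measured genes with a window. A forkhead core, TGTTTAC or GTAAATA on either strand, stood in 3 of the 25 (12.0%), against 5.95%. A pair of units with 0 to 13 bases between them, which forms a full p53 site, was found in DDB2 alone among these genes, and in 4 of the 14239 measured genes (0.0281%). The matches in genes that were called are printed below, 5′ to 3′ on the strand of the gene, with the matched bases in capitals. SESN1 held both motifs and has a line for each.

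DDB2, paired p53 units, chr11:47214979-47214999, plus strand: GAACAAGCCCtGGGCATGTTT
AEN, p53 unit, chr15:88621276-88621339, plus strand: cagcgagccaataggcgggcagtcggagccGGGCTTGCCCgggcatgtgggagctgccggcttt
PLK2, p53 unit, chr5:58460179-58460248, minus strand: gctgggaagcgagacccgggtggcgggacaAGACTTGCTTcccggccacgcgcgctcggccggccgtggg
SESN1, p53 unit, chr6:109008998-109009067, minus strand: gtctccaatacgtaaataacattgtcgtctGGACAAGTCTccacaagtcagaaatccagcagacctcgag
SESN1, forkhead core, chr6:109009020-109009086, minus strand: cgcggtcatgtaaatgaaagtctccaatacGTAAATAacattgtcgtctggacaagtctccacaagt
GDF15, forkhead core, chr19:18386032-18386098, plus strand: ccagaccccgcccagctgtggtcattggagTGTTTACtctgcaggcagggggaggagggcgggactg

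The DDB2 pair spans 21 bases with 1 base between its units. It begins 5 bases past one RefSeq start of DDB2 and 525 bases past the first annotated start of the gene, and so lies inside the gene near its 5′ end. The AEN unit ends 24 bases before a start that lies within the annotated gene. The PLK2 unit ends 122 bases before the start and the GDF15 core 89 bases before it, both outside the gene. In SESN1 the p53 unit ends 39 bases before a start within the gene, and the forkhead core ends 61 bases before the same start, upstream of the p53 unit. The third gene with a forkhead core was MDM4. These are matches of letters in short windows, and whether p53 or FOXC1 binds there was not measured. Sites outside the windows, or with a mismatch to the consensus, were not searched for. A gene without a match here may therefore still hold a p53 or forkhead site.

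Of the 29 genes, 12 were called higher and 7 lower in FOXC1 cells, and 10 were not called. That is 65.5% of them, where the background over all 18417 genes was 31.4%, with 15.9% called higher (2925 genes) and 15.5% called lower (2852). Centring each array on its median turned that background to 1739 higher and 3396 lower, and the 29 genes to 10 higher and 7 lower. The FOXC1 arrays lay both above or both below the vector arrays in 27 of the 29 genes, where the background was 63.5% of genes. Most of the changes were small. The median change of the 29 genes was 0.10 on the log2 scale, against 0.03 for all genes, and the median size without regard to sign was 0.18 against 0.11. Changes of at least 1.2-fold that were also called numbered 9 (background 13.4%), 5 of them higher (DDB2, GDF15, GADD45A, EDA2R and AEN) and 4 lower (APAF1, RRM2B, TP53INP1 and PHLDA3). The calls of DDB2, GDF15, GADD45A, PLK2, AEN, ZMAT3, APAF1, TP53INP1 and RRM2B held under all 14 alternative settings tried for each, which include leaving out each array but not a limit of 1.2-fold, which PLK2 and ZMAT3 do not reach. Without a trend in the variance the counts dropped to 7 higher and 4 lower, and the calls lost were those of MDM2, CDKN1A, SERTAD1, BAX, TIGAR, CCNG1, TP53I3 and SESN1. With all probe sets tested the calls of EDA2R, TIGAR, PHLDA3, TP53I3 and SESN1 were lost. The count of lower calls was also 4 without vector replicate 1, without vector replicate 2, without FOXC1 replicate 2, and with all 33297 probe sets tested.

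**Figure D1:**
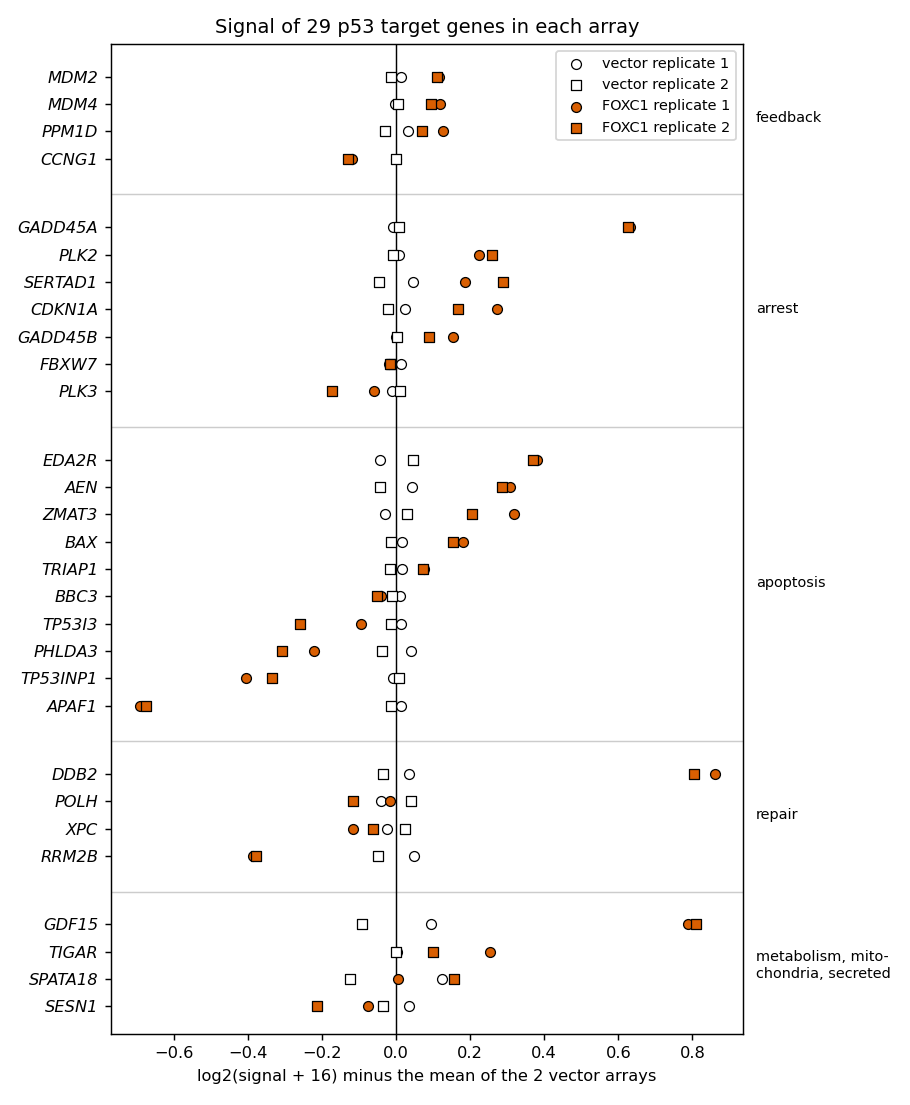
Each row is 1 of 29 p53 target genes, grouped by role, and each point is 1 array; the x axis is log2(signal + 16) minus the mean of the 2 vector arrays. Open points are vector and filled points FOXC1 arrays, and the groups overlap in POLH and SPATA18 only.

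Among the genes listed under cell cycle arrest, 4 of 7 measured were called higher (57.1%) and 0 lower, with a median log2 change of 0.22. The group is a listing, and whether each product halts the cycle in these cells was not tested. Of all genes 15.9% were called higher, and of those above the 25th percentile of signal, where these 7 lie, 20.6%. GADD45A, a small stress protein that binds PCNA and inhibits the mitotic kinase CDK1, had signals of 1951 and 1973 with vector and 3048 and 3034 with FOXC1 (probe set 7902227). The groups were far apart beside the spread within them, with means of 1962 ± 15.5 and 3041 ± 10.0 (SD, n = 2 each), a 1.55-fold rise (log2 0.63 ± 0.04 SE, adjusted p = 5.03e-11). Its paralogue GADD45B read 1307 and 1310 in vector and 1458 and 1391 in FOXC1 cells. Both FOXC1 arrays were the higher ones, but the gene was not called (log2 0.12, 95% interval 0.02 to 0.23 before adjustment, adjusted p = 0.0758). It was called without FOXC1 replicate 2 (adjusted p = 0.0267), with quantile normalization (0.0283) and in a fit with the replicate block (0.0409), and its adjusted p was up to 0.297 with another array left out.

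CDKN1A encodes p21, the cyclin-dependent kinase inhibitor through which p53 stops the cycle in G1. It read 1879 and 1820 in vector and 2237 and 2080 in FOXC1 cells (probe set 8119088). The lowest FOXC1 array lay above the highest vector array, by more than the FOXC1 arrays differed from each other. The rise was 1.16-fold (log2 0.22 ± 0.05 SE, adjusted p = 0.000757), and with no trend in the variance it was not called (adjusted p = 0.0579). PLK2, a polo-like kinase of stressed and dividing cells, rose 1.18-fold, from 6520 and 6447 to 7566 and 7760 (log2 0.24 ± 0.03 SE, adjusted p = 4.01e-07). Its relative PLK3 read 1072 and 1089 in vector and 1035 and 956 in FOXC1 cells and was not called (log2 -0.12 ± 0.06 SE, adjusted p = 0.137), and its value rested on FOXC1 replicate 2: the change was -0.061 without it (adjusted p = 0.498) and -0.17, called lower, without FOXC1 replicate 1 (adjusted p = 0.0254). SERTAD1, which binds CDK4 and modulates E2F activity, rose 1.18-fold, from 982 and 921 to 1084 and 1165 (adjusted p = 0.0037). It was not called without vector replicate 2 (adjusted p = 0.0937, log2 0.19) and without a variance trend (0.0605). FBXW7, the substrate receptor of a ubiquitin ligase for cyclin E, was level at 670 and 658 in vector and 655 and 657 in FOXC1 cells (log2 -0.02, 95% interval -0.16 to 0.12, adjusted p = 0.869).

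The apoptosis and survival genes split, with 4 of 10 called higher, 4 lower and 2 not called (80% called, against 31.4% of all genes), and a median log2 change of 0.01. All of them but EDA2R and PHLDA3 lie above the 25th percentile of signal, where 20.6% of genes were called higher and 20.2% lower. The largest of these 10 changes was a fall in APAF1, the scaffold of the apoptosome, which activates caspase-9 once cytochrome c leaves the mitochondria. APAF1 read 1338 and 1313 with vector and 814 and 823 with FOXC1 (probe set 7957759). It fell 1.61-fold, with means of 1325 ± 17.7 and 819 ± 6.84 (SD, n = 2 each), and the groups differed by many times the spread within them (log2 -0.68 ± 0.06 SE, adjusted p = 2.97e-09). TP53INP1, a nuclear stress protein that promotes p53 phosphorylation and autophagy, fell 1.29-fold, from 321 and 325 to 240 and 253 (log2 -0.37 ± 0.09 SE, adjusted p = 0.00292).

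The weaker falls were in PHLDA3 and TP53I3. PHLDA3, which competes with AKT for membrane lipids, read 309 and 291 in vector and 255 and 239 in FOXC1 cells (1.2-fold lower, adjusted p = 0.0326). TP53I3, a quinone oxidoreductase also called PIG3, read 1132 and 1109 in vector and 1049 and 933 in FOXC1 cells (1.13-fold lower, adjusted p = 0.0311). Each call was lost when 1 of 3 arrays was left out. For PHLDA3 the adjusted p was 0.238 without vector replicate 1 (log2 -0.23), 0.0822 without vector replicate 2 (log2 -0.30) and 0.118 without FOXC1 replicate 2 (log2 -0.22). For TP53I3 it was 0.181 without vector replicate 1 (log2 -0.16), 0.100 without vector replicate 2 (log2 -0.19) and 0.249 without FOXC1 replicate 2 (log2 -0.09).

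Of the 4 rises, AEN encodes a p53-induced nuclease that digests DNA in dying cells. AEN read 1759 and 1654 in vector and 2116 and 2083 in FOXC1 cells, a 1.23-fold rise (log2 0.30 ± 0.05 SE, adjusted p = 2.61e-05). ZMAT3, a zinc finger protein that binds RNA, read 824 and 859 in vector and 1053 and 972 in FOXC1 cells, a rise of 1.2-fold that lay just under the limit of 1.2 before rounding (adjusted p = 0.00214). BAX, which opens the outer mitochondrial membrane, rose by less, 1.12-fold, from 3069 and 3005 to 3442 and 3381 (log2 0.17 ± 0.04 SE, adjusted p = 0.000936), and with no trend in the variance it was not called (adjusted p = 0.0594). EDA2R, a death receptor family member on the X chromosome, was dim, with signals of 112 and 121 in vector and 156 and 155 in FOXC1 cells. It rose 1.30-fold (log2 0.37 ± 0.11 SE, adjusted p = 0.0133), a call lost without vector replicate 1 (adjusted p = 0.105, log2 0.33) and with all probe sets tested (0.0571). BBC3, the BH3-only protein PUMA, was not called at 908 and 893 in vector and 875 and 869 in FOXC1 cells (log2 -0.05, 95% interval -0.17 to 0.08, adjusted p = 0.606). TRIAP1, a small mitochondrial protein that restrains apoptosis, was not called either, at 3764 and 3680 in vector and 3920 and 3917 in FOXC1 cells (log2 0.07 ± 0.03 SE, adjusted p = 0.101).

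**Figure D2:**
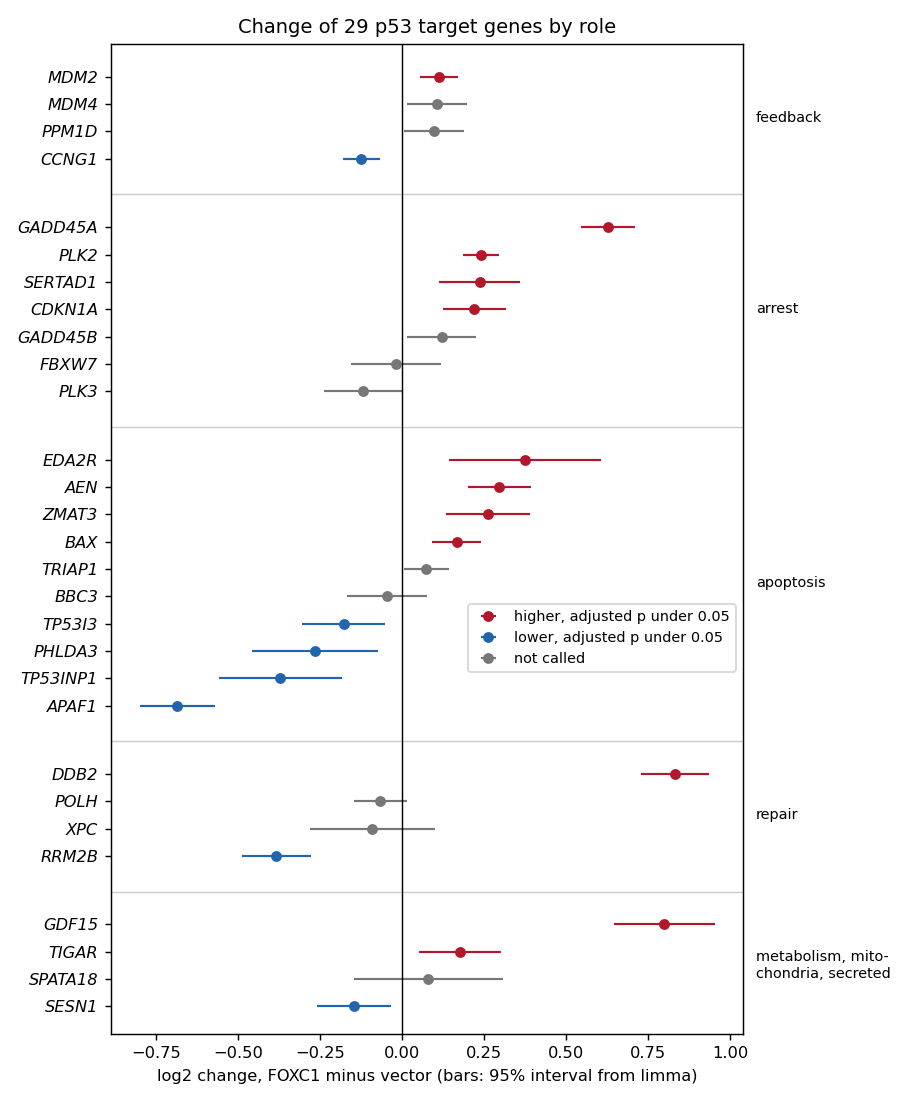
Log2 change of each of 29 p53 target genes, FOXC1 minus vector, with its 95% interval from limma before adjustment; red genes were called higher, blue genes lower and grey genes were not called. The genes listed under arrest hold 4 red and 0 blue points, while the apoptosis genes hold 4 of each and run from -0.68 (APAF1) to 0.37 (EDA2R).

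The 4 DNA repair genes held both the largest rise of the 29 genes and a clear fall. DDB2 encodes the subunit of the UV-DDB complex that recognises ultraviolet damage and hands it to XPC for nucleotide excision repair. It read 1162 and 1105 with vector and 2070 and 1991 with FOXC1 (probe set 7939738). The rise was 1.78-fold, from 1134 ± 40.2 to 2030 ± 55.6 (SD, n = 2 each), far beyond the spread within groups (log2 0.83 ± 0.05 SE, adjusted p = 2.18e-11). DDB2 is the gene that carries the paired p53 units printed above.

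RRM2B, the p53-inducible small subunit of ribonucleotide reductase, which supplies nucleotides for repair outside S phase, moved the other way. It read 1723 and 1608 in vector and 1270 and 1276 in FOXC1 cells (probe set 8152133), a 1.30-fold fall (log2 -0.38 ± 0.05 SE, adjusted p = 3.88e-06). XPC, the partner of DDB2 in damage recognition, was dim and not called, at 275 and 285 in vector and 257 and 268 in FOXC1 cells (log2 -0.09, 95% interval -0.28 to 0.10, adjusted p = 0.501). The bypass polymerase POLH read 3802 and 4023 in vector and 3870 and 3604 in FOXC1 cells, so that the groups overlapped, and was not called (log2 -0.07 ± 0.04 SE, adjusted p = 0.216). Without FOXC1 replicate 1 it was called lower (adjusted p = 0.0242, log2 -0.12), and without FOXC1 replicate 2 the change was -0.015 (adjusted p = 0.830).

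Among genes of metabolism, mitochondria and secreted stress signals, 2 of 4 measured were called higher and 1 lower (75% called, against 31.4% of all genes). Of all genes 15.9% were called higher and 15.5% lower, and 4 genes are too few to set a share against these. GDF15, a secreted TGF-beta family cytokine that many stresses induce, read 501 and 438 with vector and 820 and 833 with FOXC1 (probe set 8027002). It rose 1.74-fold, from 469 ± 44.4 to 826 ± 9.21 (SD, n = 2 each; log2 0.80 ± 0.07 SE, adjusted p = 2.31e-08), and its vector arrays differed more from each other than its FOXC1 arrays did. TIGAR, a phosphatase that lowers fructose-2,6-bisphosphate and so slows glycolysis, read 1000 and 998 in vector and 1194 and 1071 in FOXC1 cells, a 1.13-fold rise (adjusted p = 0.0291). TIGAR was no longer called without vector replicate 1 (adjusted p = 0.124), vector replicate 2 (0.136) or FOXC1 replicate 1 (0.209, log2 0.10) and with median centring (0.129). SESN1, a leucine-binding inhibitor of mTORC1, read 1517 and 1443 in vector and 1402 and 1273 in FOXC1 cells, 1.11-fold lower (adjusted p = 0.0477). It was no longer called without vector replicate 1 (adjusted p = 0.353, log2 -0.11), vector replicate 2 (0.0764) or FOXC1 replicate 2 (0.314, log2 -0.08), and with an offset of 1 (0.0506). SPATA18, which takes part in mitochondrial quality control, was dim, with overlapping groups of 215 and 179 in vector and 197 and 220 in FOXC1 cells, and was not called (log2 0.08, 95% interval -0.15 to 0.31, adjusted p = 0.629).

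The feedback genes that restrain p53 changed little. MDM2, the ubiquitin ligase that marks p53 for degradation and is itself a p53 target, read 5727 and 5616 in vector and 6150 and 6119 in FOXC1 cells (probe set 7956989). The 1.08-fold rise was called (log2 0.11 ± 0.03 SE, adjusted p = 0.00386), but not without vector replicate 2 (adjusted p = 0.0700, log2 0.10), with median centring (0.208) or without a variance trend (0.130). Its partner MDM4, which masks the activation domain of p53, had a change of the same size, from 1768 and 1779 to 1928 and 1892, and was not called (log2 0.11 ± 0.04 SE, adjusted p = 0.0734). With the replicate block MDM4 was called (adjusted p = 0.0417), as it was with quantile normalization (0.0434). The phosphatase PPM1D, also called WIP1, read 1992 and 1908 in vector and 2130 and 2047 in FOXC1 cells and was not called (adjusted p = 0.101), except without FOXC1 replicate 2 (0.0411), with an adjusted p of up to 0.546 when another array was left out. CCNG1, cyclin G1, which recruits a phosphatase to MDM2, was the 1 feedback gene called lower, from 7079 and 7086 to 6522 and 6475 (1.09-fold, log2 -0.12 ± 0.03 SE, adjusted p = 0.00098), but not with an untrended variance (adjusted p = 0.103).

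To show each change beside its chromosomal surroundings, each gene was set beside the 10 nearest measured genes, 5 on each side in RefSeq order. Of the 19 called genes, 11 had a change outside the range of their 10 neighbours. The same count was not made for all called genes, so it has no background share to be read against. These 19 were also picked for being called, while most of their neighbours were not. DDB2 on chromosome 11 changed by 0.83, while its neighbours ran from -0.38 to 0.23 with a median of 0.01. GDF15 on chromosome 19 changed by 0.80 beside neighbours from -0.40 to 0.20, and GADD45A on chromosome 1 by 0.63 beside neighbours from -0.11 to 0.28. APAF1 on chromosome 12 changed by -0.68 beside neighbours from -0.15 to 0.37. CDKN1A, PLK2, SERTAD1, ZMAT3, EDA2R, TP53INP1 and RRM2B were the other 7 outside the range. The neighbours of TP53INP1 on chromosome 8 had a median of -0.10, so that its change of -0.37 was -0.27 relative to them. The changes of MDM2, BAX, AEN, TIGAR, CCNG1, TP53I3, PHLDA3 and SESN1 lay within the range of theirs. For BAX on chromosome 19 the neighbours had a median of 0.11, and its change of 0.17 was 0.06 relative to it. Genes of the other lists given below were not set beside their neighbours. Whether PMAIP1, BCL2, PPP1R13L or ERCC2 changed together with nearby genes was therefore not tested.

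**Figure D3:**
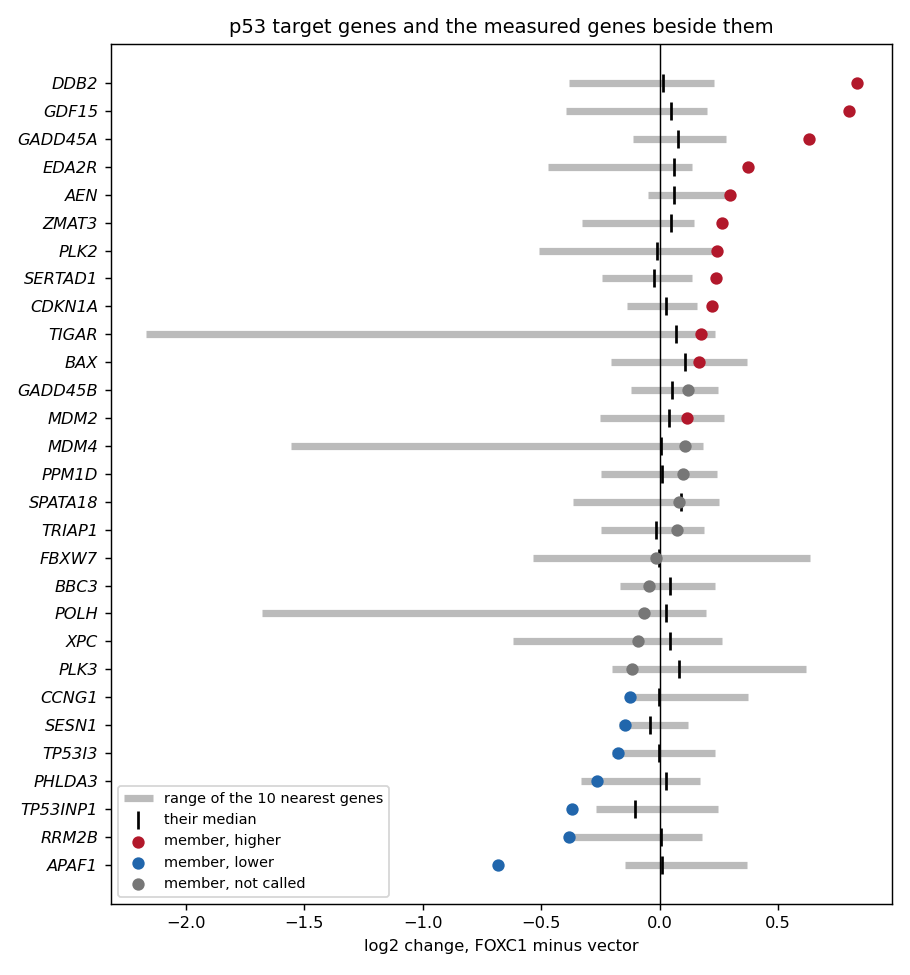
Each row is 1 of 29 p53 target genes in order of its log2 change (FOXC1 minus vector, x axis); the grey bar is the range and the black tick the median of the 10 nearest measured genes. The points of DDB2, GDF15, GADD45A and APAF1 stand clear of their bars, while those of MDM2, BAX and TIGAR lie inside them.

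Of 41 further p53 targets outside the set, 38 were measured, and 7 were called higher and 11 lower, with a median log2 change of -0.02. The share called higher, 18.4%, was near the 15.9% of all genes, and the share called lower was 28.9% against 15.5%. PMAIP1, the BH3-only protein NOXA, rose 1.42-fold, from 4297 ± 13.6 to 6128 ± 61.2 (SD, n = 2 each, adjusted p = 1.56e-11). The cytokine gene CSF1 fell 1.57-fold, from 3276 ± 73.8 to 2078 ± 15.3 (SD, n = 2 each, adjusted p = 2.35e-11), and the death receptor FAS fell 1.42-fold, from 574 ± 7.45 to 401 ± 4.72 (SD, n = 2 each, adjusted p = 1.77e-05). KITLG (1.28-fold), the tetraspanin CD82 (1.25-fold) and CYFIP2 (1.25-fold) also fell. Among sestrins, SESN2 was called higher (1.2-fold, adjusted p = 0.00286), while SESN1 was called lower as given above.

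Of 19 measured members of the p53 family and its upstream genes, 3 were called higher and 4 lower, with a median log2 change of -0.03. The 36.8% called was near the 31.4% of all genes. The checkpoint kinases CHEK1 and ATM fell 1.34-fold and 1.27-fold, from 5756 ± 28.0 to 4296 ± 144 and from 1813 ± 81.5 to 1428 ± 31.6 (SD, n = 2 each, adjusted p = 1.01e-09 and 1.14e-05). TP53BP1, which binds damaged chromatin, fell 1.26-fold, and the kinase HIPK2 1.11-fold. PPP1R13L, an inhibitor of p53 also called iASPP, rose 1.35-fold, from 2017 ± 37.6 to 2721 ± 56.0 (SD, n = 2 each, adjusted p = 3.61e-08). TP53BP2 rose 1.11-fold, and TP73, a p53 relative that binds the same consensus, rose 1.15-fold, from 845 and 804 to 954 and 951 (adjusted p = 0.0115). The call of TP73 was lost without vector replicate 2 (adjusted p = 0.182, log2 0.17) and with median centring (0.0645), and that of TP53BP2 with median centring (0.0684). Without a variance trend the calls of TP53BP2 (adjusted p = 0.0745) and HIPK2 (0.0728) were lost.

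Of 22 measured genes of the BCL2 family, the caspases and their inhibitors, 7 were called higher and 7 lower (63.6% called, against 31.4% of all genes; median log2 change 0.02). BCL2, which blocks BAX at the mitochondria, rose 1.66-fold, from 1055 ± 5.71 to 1764 ± 13.2 (SD, n = 2 each, adjusted p = 1.69e-10), and the caspase inhibitors BIRC2 and XIAP rose 1.22-fold and 1.2-fold. The BCL2 relatives BCL2A1 and BCL2L1 fell 1.36-fold and 1.17-fold. CASP9, the caspase that APAF1 activates, fell 1.15-fold (log2 -0.20 ± 0.05 SE, adjusted p = 0.00423), but was not called with an untrended variance (adjusted p = 0.0883), nor was BCL2L1, which lay just past the threshold. Beyond DDB2 and XPC, 13 measured genes of nucleotide excision repair had 4 called higher and 0 lower (median log2 change 0.03). The 30.8% called was near the 31.4% of all genes, with 15.9% of all genes called higher. The helicase ERCC2 rose 1.40-fold, from 4419 ± 8.59 to 6188 ± 12.3 (SD, n = 2 each, adjusted p = 2.94e-11). RPA2, ERCC1 and GTF2H1 rose 1.13-fold, 1.09-fold and 1.09-fold. With median centring the calls of these 3 were lost (adjusted p = 0.0869, 0.149 and 0.213), as they were without a variance trend (0.0970, 0.112 and 0.113). The calls of RPA2 and GTF2H1 were also lost without vector replicate 2 (adjusted p = 0.265, log2 0.12, and 0.135, log2 0.11), and that of RPA2 with all probe sets tested (0.0550).

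**Figure D4:**
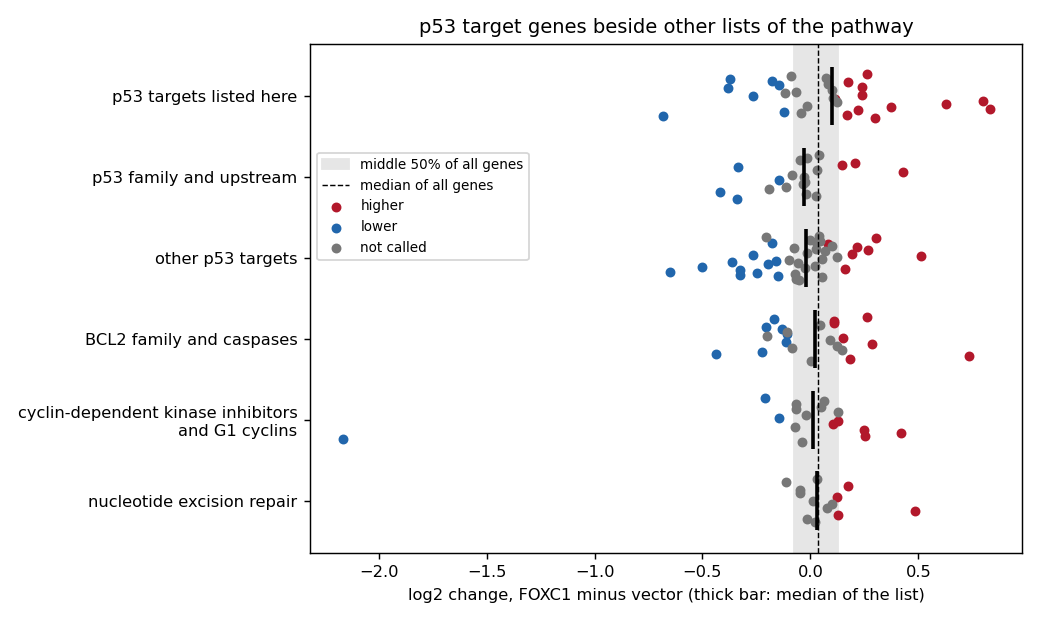
Log2 change (FOXC1 minus vector, x axis) of single genes in 6 lists; thick bars are list medians, the dashed line is the median of all genes (0.03) and the grey band their middle 50%. The median of the 29 p53 targets is 0.10, the medians of the other 5 lists lie between -0.03 and 0.03, and red and blue points stand on both sides in every list but nucleotide excision repair.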

How the data were processed

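Total RNA from 4 samples was hybridised to Affymetrix HuGene 1.0 ST arrays. The authors deposited linear intensity values made with PLIER in Affymetrix Expression Console at gene level, per the labels. Versions and normalization options were not given in the sources used here. Probe sets were named from GEO's platform annotation: of 33297, 19460 had 1 symbol, 1754 several and 12083 none.

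An offset of 16 was added before log2, which shrinks folds of dim genes. The model was fitted to the 21214 named probe sets in limma 3.58.1 under R 4.3.3 (eBayes after lmFit, with a variance trend, two-sided, 2 residual and 18.1 prior degrees of freedom), with Benjamini-Hochberg adjustment over all of them at 0.05. The fit was also run on simulated data with normal noise set by a smoothed variance trend. That run cannot show how the fit behaves where the noise of a gene departs from the trend. One probe set per gene was kept, the brightest, for 18417 genes. With 18.1 prior against 2 residual degrees of freedom, the p-values rest mostly on a variance shared by genes of similar signal. The spread between arrays, which enters them less, may be technical. In limma without the variance trend, the adjusted p was 0.00199 for DDB2, 0.00225 for GADD45A, 0.00556 for GDF15 and 0.00202 for APAF1. An exact permutation test of 2 against 2 arrays cannot go below 0.333 and was not run.

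The genes and lists were chosen with earlier results of these data known. All measured members are named, and of the other lists at most the 6 called genes with the largest change (7 upstream), with SESN2 chosen after its values were seen. Of the measured genes, 18362 were placed in RefSeq order. Alternatives were offsets of 1 and 64, a filter at the 25th percentile of signal, quantile normalization, median centring, eBayes without trend or robust, the replicate block, each array left out, all probe sets, probe set means, and a 1.2-fold limit.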

Additional observations from a re-analysis of the deposited data

How the results depend on the processing

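Of the 19 called p53 targets, 9 kept their call and direction under all 14 alternative settings tried per gene (the 1.2-fold limit is not among them), and of the 10 uncalled ones 4 stayed uncalled throughout. The count of 12 higher and 7 lower became 7 and 4 without a variance trend and 5 and 4 with a limit of 1.2-fold, and lower calls numbered 4 with all probe sets tested. Leaving out each array in turn gave 9 to 14 higher and 4 to 9 lower. For all genes, higher calls were 1739 with median centring, 1461 without a variance trend, 1858 with all probe sets tested, 1038 with the 1.2-fold limit, and 1913 to 2951 with an array left out, and lower calls were 1790 without a variance trend and 1434 with the 1.2-fold limit. The change of SPATA18, not called, ranged from -0.043 (reversed, without vector replicate 2) to 0.20 (without vector replicate 1) with an array left out. With the replicate block 14 targets were called higher and 7 lower. Same-numbered arrays did not deviate together (correlation -0.01 across probe sets), so the numbers were not taken to pair the arrays. Brighter genes were called more often: above the 25th percentile of signal (277), 20.6% of 13874 genes were called higher and 20.2% lower, beside 11 and 6 of the 25 targets there. EDA2R, PHLDA3, XPC and SPATA18 fell below that limit and gave no value under it. The causes of these differences were not tested. With 2 arrays per group, changes well under 1.2-fold in dim genes may not be resolved.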

Other observations

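Cyclins and inhibitors of the G1 phase, the machinery on which p21 acts, were also read. Of 16 measured, 5 were called higher and 3 lower (50% called, against 31.4% of all genes), with a median log2 change of 0.01. CCND2, cyclin D2, fell 4.49-fold, from 1208 and 1218 in the vector arrays to 272 and 244 in the FOXC1 arrays (log2 -2.17 ± 0.07 SE, adjusted p = 1.53e-15). CCND2 is also a chromosomal neighbour of TIGAR on chromosome 12, where it sets the low end of that gene's neighbour range. The other D-type cyclin called, CCND3, rose 1.19-fold, from 5363 ± 43.9 to 6390 ± 84.3 (SD, n = 2 each, adjusted p = 4.64e-07). For cyclin E the rises were 1.34-fold in CCNE1 and 1.19-fold in CCNE2 (adjusted p = 8.07e-07 and 4.47e-06). The CDK inhibitor CDKN1B, p27, was called lower (1.11-fold, adjusted p = 0.0142), while CDKN1A was called higher. CDKN1B was not called without vector replicate 2 (adjusted p = 0.174, log2 -0.12), without FOXC1 replicate 2 (0.106, log2 -0.10), with all probe sets tested (0.0753) and without a variance trend (0.136). The pocket protein gene RBL2 fell 1.16-fold (adjusted p = 0.00664), but was not called without vector replicate 1 (adjusted p = 0.0984, log2 -0.20) or without vector replicate 2 (0.0502, log2 -0.22).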
